A study of Mus musculus with 8 samples.

Results

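Glutathione transferases and peroxidases, peroxiredoxins, the thioredoxin system, superoxide dismutases, catalase and their regulators Nfe2l2 and Keap1 were followed in mouse cortical neurospheres that had met ethanol before they differentiated. The rule that picked their probes matches gene symbols. The array's annotation matched 69 probes of 67 genes among 21582 probes in all. Of these probes 55 (79.7%), of 53 genes, had a usable ratio on at least 3 arrays of each dye orientation and were tested, against 15345 of all probes (71.1%).

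Neurospheres are free-floating balls of cells that neural stem cells and their progeny form in culture, here from mouse cortex at gestational day 12.5. The exposed cultures met ethanol at 320 mg/dl for 5 days in medium with basic fibroblast growth factor, epidermal growth factor (EGF) and leukaemia inhibitory factor (LIF), and then spent 3 days differentiating, free of EGF, LIF and ethanol but still with the fibroblast growth factor. The control cultures grew in the same medium and also differentiated with that factor and without EGF and LIF, and met no ethanol. Both RNAs shared each of 8 two-colour arrays: the exposed RNA carried Cy3 on replicates 1 to 4 (array codes a3, a5, a1r and a2r) and Cy5 on replicates 5 to 8 (b3, b4, b5 and b1r). The labels name no strain, sex or number of embryos, and do not tell separate cultures from repeat hybridisations.

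Antioxidant enzymes fall into linked systems. Superoxide dismutases turn superoxide into hydrogen peroxide, which catalase, glutathione peroxidases and peroxiredoxins remove. Glutathione, a tripeptide made by glutamate-cysteine ligase and glutathione synthetase, feeds the peroxidases and the transferases that attach it to reactive molecules, while thioredoxin keeps peroxiredoxins reduced. Many of these genes are induced by the transcription factor NRF2 (Nfe2l2), which KEAP1 holds at a low level until oxidants or electrophiles modify it. In brain, astrocytes are known as the main site of glutathione supply, and ethanol oxidation is a known source of reactive oxygen species.

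The deposited values are log2 ratios between the channels, with no statement of which channel was the numerator. Each probe was therefore described by a shared part, its mean over both dye orientations, and a turning part, by which it lies above that mean with exposed RNA in Cy5 and below it with exposed RNA in Cy3. The ethanol effect is in the shared part if the ratios were written as 1 condition over the other, and in the turning part if they were written as 1 dye over the other; the dye effect is then in the part that remains. Signs are as deposited, after each array was centred on its median, and no sign says whether exposed cells held more or less of a transcript. The arrays gave 16274 to 18802 computable ratios each, and with no intensities the level of a gene, of a cell-type marker or of one member against another cannot be read. All values below are log2 ratios unless they are called folds.

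Between the dye orientations 1 antioxidant gene differed past the threshold, Gclm, the modifier subunit of glutamate-cysteine ligase. In the shared part no member passed, and Hmox1, Gpx1 and Prdx4 read highest among those with an unadjusted p under 0.05, while Gstt4, Gstm6 and one of 2 Cat probes read lowest. Of the 55 probes 38 (69.1%) had a positive shared part, against 46.1% of all probes tested. All 5 glutathione peroxidases and all 4 haem oxygenase and quinone reductase probes, 2 of them for Nqo1, were among the positive ones. So were all 3 glutaredoxins, the 2 membrane transferases and the 2 regulators. Of the 15 tested cytosolic glutathione transferases 7 were positive, near the 46.1% of all probes, and 8 were negative.

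In the limma fit the shared part gave 0 calls among the 55 members at the adjusted threshold of 0.05 (background 0%, smallest member adjusted p = 0.232). At an unadjusted p under 0.05 there were 8 of 55 (14.5%), near the background of 13.9%. The 8 were 4 positive (7.27%, background 4.88%) and 4 negative (7.27%, background 9.01%). In the turning part 1 of 55 members passed (1.82%, background 1.56% over both signs and 0.769% positive), and 6 of 55 had an unadjusted p under 0.05 (10.9%, background 13.8%), 5 of them positive (background 8.69%) and 1 negative (background 5.14%). The share of members called was thus close to that of all probes in both parts. Without replicate 2 the unadjusted counts were 5 and 3, against 12.8% and 12.6% of all probes. Without replicate 6 the turning count was 3, against 12% of all probes. Without replicates 3, 4 and 8, whose codes end in r, the shared count was 3 of 48, against 11.2% of all probes.

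**Figure D1:**
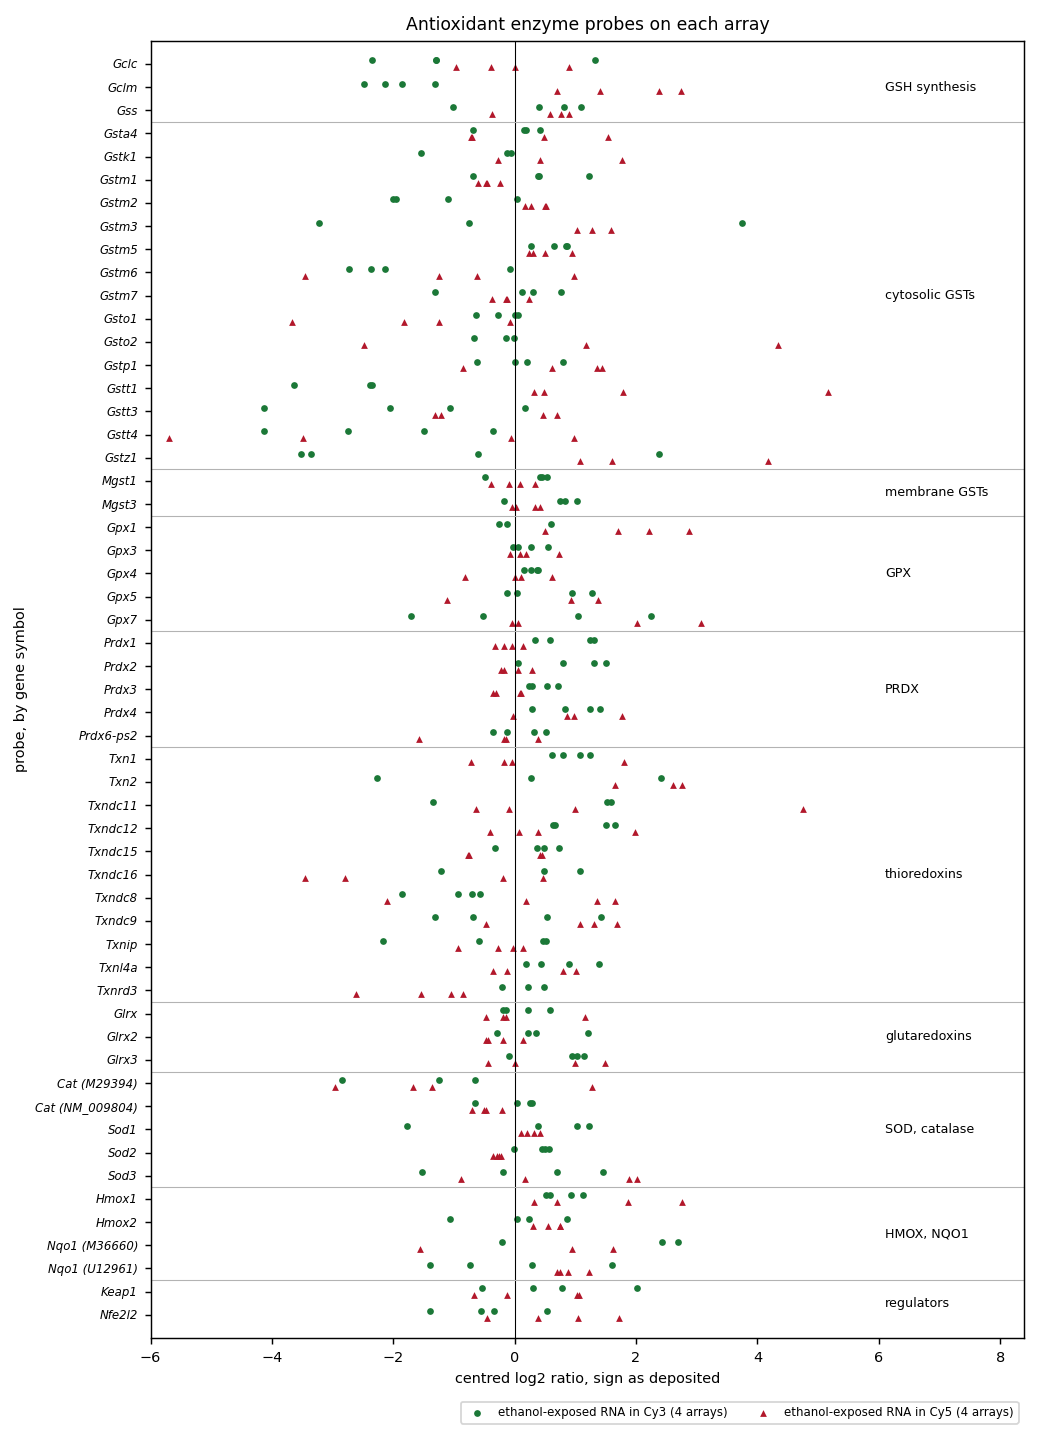
Centred log2 ratio (x axis, sign as deposited) of the 55 tested antioxidant enzyme probes (y axis, by role) on each of 8 arrays; green circles are the 4 arrays with exposed RNA in Cy3, red triangles the 4 with exposed RNA in Cy5, and probes without a computable ratio on an array have fewer points. The Gclm circles lie between -2.48 and -1.32 and its triangles between 0.70 and 2.74, whereas most other rows overlap.

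**Figure D2:**
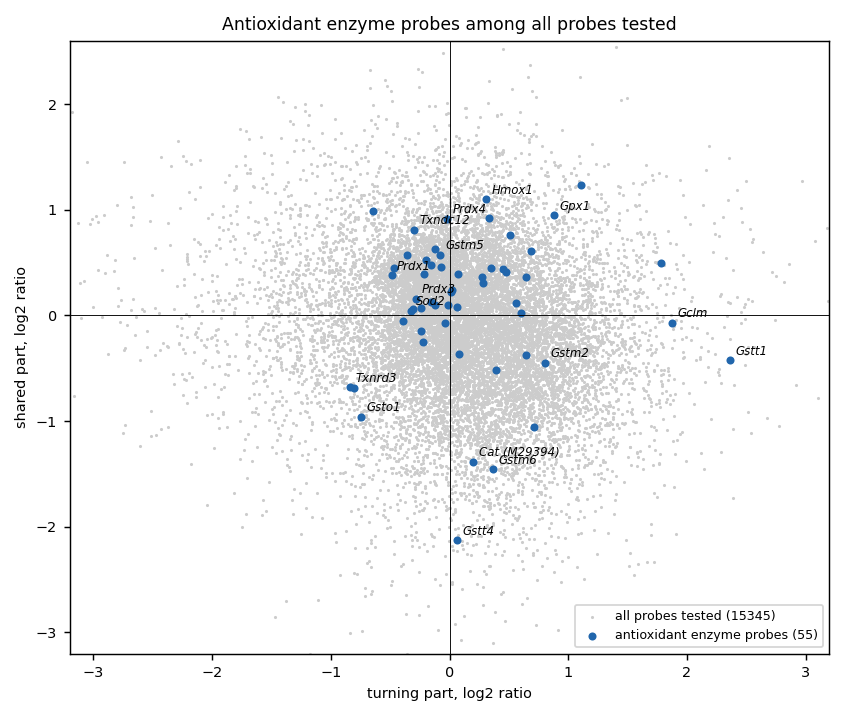
Shared part (y axis) against turning part (x axis), both log2 ratios, for 15345 probes tested (grey) and the 55 antioxidant enzyme probes (blue); 129 probes lie outside the axes. Labelled are members with an unadjusted p under 0.05 in the shared part, with the same sign on every array, or with no overlap between orientations; Gstt1 and Gclm lie farthest right, at 2.36 and 1.88, and Gstt4 lowest, at -2.13.

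Of the 4 genes of glutathione synthesis and reduction, the 3 of synthesis were tested. Gclm encodes the subunit that raises the affinity of the ligase for glutamate. Its ratios were -2.48, -2.13, -1.85 and -1.32 on replicates 1 to 4 and 2.74, 1.41, 2.38 and 0.70 on replicates 5 to 8. Every array with exposed RNA in Cy3 was negative and every array with exposed RNA in Cy5 positive, with no overlap. The orientation means were -1.95 ± 0.49 and 1.81 ± 0.93 (SD, n = 4 each), so that the turning part was 1.88 ± 0.33 (SE of the fit), or 3.67-fold (limma, adjusted p = 0.0185 over all 15345 probes). The shared part was -0.07 ± 0.33. The call ended without any 1 of replicates 1, 2, 3, 5 and 7 (adjusted p 0.0508 to 0.0610) and without the 3 arrays whose codes end in r (adjusted p = 0.133), while the turning part stayed between 1.72 and 2.24 in all of these.

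The catalytic subunit of the same ligase, Gclc, did not follow. It read -1.30, -1.30, 1.32 and -2.35 on replicates 1 to 4 and -0.39, 0.89, -0.96 and 0.00 on replicates 5 to 8. The orientations overlapped, and the turning part was 0.39 ± 0.42 with a shared part of -0.51 ± 0.42. Glutathione synthetase, Gss, read -1.02, 1.10, 0.40 and 0.81, then -0.38, 0.76, 0.58 and 0.89. It was positive on 6 of 8 arrays, with a shared part of 0.39 ± 0.33 and a turning part of 0.07 ± 0.33. The difference between Gclm and these enzymes was not tested. Gsr, which recycles oxidised glutathione, had a ratio on 2 arrays of each orientation and was not tested.

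The antioxidant response element is the sequence that NRF2 binds with small MAF proteins. Its core, TGACNNNGC on either strand, was searched in the promoter windows of RefSeq (build GRCm38.p6), from 250 bases before to 50 bases after a gene start. Windows were held for 58 of the 67 member genes, and 10 of these genes (17.24%) had the core in at least 1 window, against 13.99% of all 27025 genes in the table. By window the shares were 12.66% of 79 for the members and 12.39% of 32851 in all. The Gclm window is printed because Gclm was the member that differed between the orientations; it lies at chr3:122245307-122245606 on the plus strand, and capitals mark the core, on the opposite strand from position -134 relative to the gene start. A match of letters is a description and not a binding site.

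Gclm: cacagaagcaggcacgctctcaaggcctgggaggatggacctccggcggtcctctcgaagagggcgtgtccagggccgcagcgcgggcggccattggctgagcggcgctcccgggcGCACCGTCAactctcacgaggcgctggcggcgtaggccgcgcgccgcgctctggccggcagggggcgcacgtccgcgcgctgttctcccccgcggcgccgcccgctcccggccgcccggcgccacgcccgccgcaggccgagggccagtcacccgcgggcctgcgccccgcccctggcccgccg

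Cytosolic glutathione transferases attach glutathione to reactive molecules and form the largest group, with 15 of 20 probes tested. The group was set by gene symbol and so includes Gstk1, of the kappa class, which is not one of the cytosolic classes. Of these 7 had a positive shared part (median -0.06, or 0.06 without replicate 2) and 11 a positive turning part (median 0.37), and 0 passed (limma, 3 at an unadjusted p under 0.05 in each part). The turning median was 0.69 with the values as deposited (13 of 15 positive), 0.61 with exact zeros kept, 0.60 without replicate 5 and 0.06 over the 10 probes with a value on all 8 arrays. Shared parts ran from -2.13 to 0.61 and turning parts from -0.74 to 2.36. Mouse genes of the mu class lie in a cluster of close copies, and cross-hybridisation between such copies was not tested, so that values of single mu-class genes are uncertain.

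The theta-class gene Gstt1 had the largest turning part of all members. It had no ratio on replicate 1 and read -2.35, -3.63 and -2.38 on replicates 2 to 4 against 0.32, 1.79, 5.16 and 0.48 on replicates 5 to 8. The orientations did not overlap, and replicate 7 was far above the other arrays with exposed RNA in Cy5. The turning part was 2.36 ± 0.59 (limma, unadjusted p = 0.0029, adjusted p = 0.0998), and it passed only with the values as deposited (adjusted p = 0.0405). Gstt4, of the same class, read -4.14, -0.35, -1.50 and -2.75 on replicates 1 to 4 and -5.69, 0.97, -3.49 and -0.06 on replicates 5 to 8. It was negative on 7 of 8 arrays, with a shared part of -2.13 ± 0.72, the lowest of all members (limma, unadjusted p = 0.0141, adjusted p = 0.254), and a turning part of 0.06 ± 0.72. Gstt3 had a shared part of -1.06 ± 0.48 and a turning part of 0.71 ± 0.48.

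In the mu class Gstm2 read -1.95, -2.01, -1.10 and 0.03 on replicates 1 to 4 and 0.51, 0.50, 0.27 and 0.17 on replicates 5 to 8. The orientations did not overlap, although replicate 4 came near those with exposed RNA in Cy5, and the turning part was 0.81 ± 0.32 (limma, adjusted p = 0.294). Gstm6 read -2.13, -2.73, -2.37 and -0.07, then 0.97, -1.24, -0.63 and -3.46. It was negative on 7 of 8 arrays, with a shared part of -1.46 ± 0.49 (limma, adjusted p = 0.254). Gstm5 differed from both, since it was positive on 8 of 8 arrays (7 of 8 with the values as deposited). Its ratios were 0.26, 0.84, 0.65 and 0.86, then 0.30, 0.50, 0.95 and 0.23, with a shared part of 0.57 ± 0.27 (limma, unadjusted p = 0.0586). The remaining mu-class probes Gstm1, Gstm3 and Gstm7 had shared parts of -0.06 ± 0.30, 0.61 ± 0.79 and -0.07 ± 0.31, with turning parts of -0.39, 0.69 and -0.04.

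The Gstm5 window is printed because Gstm5 and Hmox1 were the members with 1 sign on every array and the table held a window for Gstm5. It lies at chr3:107895604-107895903 on the plus strand, and capitals mark the antioxidant response core on the same strand from position -42 relative to the gene start.

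Gstm5: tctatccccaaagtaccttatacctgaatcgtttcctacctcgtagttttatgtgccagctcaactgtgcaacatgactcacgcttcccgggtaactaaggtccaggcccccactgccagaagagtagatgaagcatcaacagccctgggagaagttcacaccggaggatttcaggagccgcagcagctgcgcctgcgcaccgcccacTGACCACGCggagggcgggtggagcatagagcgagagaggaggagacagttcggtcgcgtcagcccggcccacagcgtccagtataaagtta

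Gsto1, an omega-class enzyme with dehydroascorbate reductase activity, read 0.06, 0.01, -0.28 and -0.64 on replicates 1 to 4 and -3.67, -1.82, -1.24 and -0.07 on replicates 5 to 8. The low values were on 3 of 4 arrays with exposed RNA in Cy5, and the shared and turning parts were -0.96 ± 0.39 and -0.74 ± 0.39 (limma, shared adjusted p = 0.320). Gstz1, which acts in tyrosine breakdown, read -0.61, -3.53, -3.36 and 2.37, then 1.60, no ratio, 4.18 and 1.07. Replicate 4 lay among the arrays of the other orientation, and the turning part was 1.78 ± 0.74 (limma, adjusted p = 0.327). The pi-class Gstp1 and the alpha-class Gsta4 read 0.37 ± 0.35 and 0.08 ± 0.34 in the shared part. There the kappa-class Gstk1 and omega-class Gsto2 read 0.03 ± 0.43 and 0.37 ± 0.77. Turning parts of Gstp1, Gsta4, Gstk1 and Gsto2 were 0.27, 0.07, 0.60 and 0.64. The membrane-bound transferases Mgst1 and Mgst3 had shared parts of 0.10 ± 0.28 and 0.39 ± 0.28 and turning parts of -0.12 and -0.21.

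Glutathione peroxidases reduce peroxides with glutathione, and all 5 tested of 8 probes had a positive shared part (median 0.46, or 0.22 without replicate 7 and 0.84 without replicate 8). Gpx1, the main cytosolic form, had no ratio on replicate 1 and read -0.12, -0.26 and 0.60 on replicates 2 to 4 against 2.22, 1.70, 2.88 and 0.50 on replicates 5 to 8. It was high on 3 of 4 arrays with exposed RNA in Cy5. The orientations overlapped after centring, since replicate 4 lay above replicate 8. Both parts had an unadjusted p under 0.05, at 0.95 ± 0.37 shared and 0.88 ± 0.37 turning (limma, adjusted p = 0.316 and 0.342). Gpx4, which reduces lipid peroxides, read 0.26, 0.15, 0.38 and 0.37, then 0.10, -0.82, 0.61 and 0.00. Its shared part was 0.13 ± 0.28, and that of the secreted Gpx3 was 0.22 ± 0.27. Gpx5, known from the epididymis, and Gpx7, of the endoplasmic reticulum, had shared parts of 0.46 ± 0.41 and 0.77 ± 0.51. Turning parts of Gpx3, Gpx5 and Gpx7 were 0.01, -0.07 and 0.51.

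Peroxiredoxins reduce peroxides through a reactive cysteine, and the median of their 5 probes separated the orientations. On replicates 1 to 4 it was 0.83, 1.24, 0.55 and 0.32, and on replicates 5 to 8 it was -0.15, -0.33, -0.05 and 0.13. All 5 of their turning parts were negative (median -0.28), but that direction rested on the centring: the median was 0.04 with the values as deposited. Prdx4, of the endoplasmic reticulum, read 0.83, 1.24, 1.40 and 0.28, then -0.03, 1.76, 0.98 and 0.86. It was positive on 7 of 8 arrays, with a shared part of 0.92 ± 0.31 (limma, unadjusted p = 0.0139, adjusted p = 0.254).

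The cytosolic Prdx1 read 1.24, 1.31, 0.58 and 0.34 on replicates 1 to 4 and -0.18, -0.33, -0.05 and 0.13 on replicates 5 to 8, and the mitochondrial Prdx3 read 0.28, 0.71, 0.54 and 0.23, then 0.11, -0.36, -0.31 and 0.08. In neither did the orientations overlap, and the higher values were those with exposed RNA in Cy3, the reverse of Gclm. Their turning parts were small, at -0.49 ± 0.28 and -0.28 ± 0.26 (limma, adjusted p = 0.481 and 0.708), and with the values as deposited the orientations of both overlapped. Prdx2, abundant in red cells and neurons, was similar in size, with a shared part of 0.45 ± 0.29 and a turning part of -0.46 ± 0.29. A probe annotated to the pseudogene Prdx6-ps2 had a shared part of -0.14 ± 0.31 and a turning part of -0.24. The Prdx1 window is printed as that of a member with the core whose orientations separated in the direction opposite to Gclm; it lies at chr4:116685349-116685648 on the plus strand, with the core in capitals on the opposite strand from position -133.

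Prdx1: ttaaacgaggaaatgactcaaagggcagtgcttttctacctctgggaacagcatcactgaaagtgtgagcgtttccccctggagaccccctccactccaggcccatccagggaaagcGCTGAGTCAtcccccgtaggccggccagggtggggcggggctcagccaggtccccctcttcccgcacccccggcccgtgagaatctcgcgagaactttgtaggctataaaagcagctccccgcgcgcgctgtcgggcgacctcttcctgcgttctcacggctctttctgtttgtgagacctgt

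The thioredoxin group had 11 of 15 probes tested, 7 with a positive shared part (median 0.44, or 0.20 without replicate 2). Thioredoxin itself, Txn1, read 1.24, 1.08, 0.62 and 0.79 on replicates 1 to 4 and -0.18, 1.80, -0.05 and -0.72 on replicates 5 to 8. It was positive on every array with exposed RNA in Cy3 and on 1 of 4 in the other orientation, and its shared part was 0.57 ± 0.34 (limma, adjusted p = 0.470; 0.31 without replicate 6). Its mitochondrial counterpart Txn2 had the highest shared part of all members, 1.24 ± 0.59, from 6 arrays, with a turning part of 1.10 ± 0.59. Txndc12, a thiol oxidoreductase of the endoplasmic reticulum, read 1.66, 0.66, 1.50 and 0.63, then -0.40, 1.99, 0.07 and 0.39. It was positive on 7 of 8 arrays, at 0.81 ± 0.34 in the shared part (limma, adjusted p = 0.332).

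Of the reductases that recharge thioredoxin, only Txnrd3 was tested. It had no ratio on replicate 1 and read 0.48, 0.22 and -0.21 on replicates 2 to 4 against -1.55, -2.62, -1.05 and -0.85 on replicates 5 to 8. The orientations did not overlap, and with the values as deposited they did; the turning part was -0.84 ± 0.35 (limma, adjusted p = 0.324) with a shared part of -0.68 ± 0.35. Txnip, which binds and inhibits thioredoxin, had a shared part of -0.36 ± 0.36 and a turning part of 0.08. Txnl4a, a spliceosome protein with a thioredoxin fold that the symbol rule brought in, read 0.53 ± 0.31 shared and -0.20 turning. The other thioredoxin-domain probes Txndc8, Txndc9, Txndc11, Txndc15 and Txndc16 had shared parts of -0.37 ± 0.43, 0.44 ± 0.39, 0.92 ± 0.68, 0.07 ± 0.30 and -0.69 ± 0.55. In the same order their turning parts were 0.64, 0.45, 0.33, -0.24 and -0.80. Glutaredoxins use glutathione to reduce mixed disulphides or carry iron-sulphur clusters. Of these Glrx, Glrx2 and Glrx3 had shared parts of 0.10 ± 0.30, 0.07 ± 0.29 and 0.63 ± 0.33. Their turning parts were -0.02, -0.30 and -0.12.

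Of 5 superoxide dismutase and catalase probes, 1 had an unadjusted p under 0.05, and that in the shared part. The cytosolic dismutase Sod1 read 1.03, -1.77, 1.23 and 0.38 on replicates 1 to 4 and 0.20, 0.31, 0.42 and 0.11 on replicates 5 to 8. Replicate 2 was the single negative array, and the shared part was 0.24 ± 0.37. The mitochondrial Sod2 read -0.02, 0.57, 0.50 and 0.45, then -0.26, -0.22, -0.36 and -0.29. The orientations did not overlap, yet their means lay close, at 0.37 ± 0.27 and -0.28 ± 0.06 (SD, n = 4 each), and the turning part was -0.33 ± 0.26 (limma, adjusted p = 0.648). The secreted Sod3 scattered widely, at 0.69, -0.20, 1.46 and -1.53, then 0.17, 2.01, -0.88 and 1.89, with a shared part of 0.45 ± 0.45.

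Catalase, which splits hydrogen peroxide, had 2 probes, and the difference between them was not tested. The first Cat probe had no ratio on replicate 1 and read -2.85, -1.25 and -0.65 on replicates 2 to 4 and -1.68, -2.97, 1.28 and -1.37 on replicates 5 to 8. It was negative on 6 of 7 arrays, with a shared part of -1.38 ± 0.53 (limma, unadjusted p = 0.0275, adjusted p = 0.306). The second Cat probe read 0.28, 0.25, -0.66 and 0.03, then -0.50, -0.21, -0.70 and -0.48. Its shared part was -0.25 ± 0.27, of the same sign and smaller, and it did not pass.

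Haem oxygenases break down haem, and Hmox1 is the inducible form and a classical NRF2 target. Hmox1 read 1.12, 0.52, 0.58 and 0.93 on replicates 1 to 4 and 2.76, 0.31, 1.86 and 0.70 on replicates 5 to 8. It was positive on 8 of 8 arrays, also as deposited, and replicates 5 and 7 were highest. Its shared part was 1.10 ± 0.34 and had the smallest p of the members there (limma, unadjusted p = 0.0088, adjusted p = 0.232), with a turning part of 0.31 ± 0.34. The constitutive Hmox2 read -1.06, 0.24, 0.86 and 0.04, then 0.75, 0.30, 0.55 and 0.75. It was positive on 7 of 8 arrays (5 of 8 as deposited), with a shared part of 0.30 ± 0.30. Same-sign ratios on every array with a value were seen for 2 of 55 members, Hmox1 and Gstm5 (3.64%, both positive), against 3.57% of all probes in either sign and 1.82% positive.

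The quinone reductase Nqo1, another NRF2 target, had 2 probes. The first Nqo1 probe read 2.69, 2.42, no ratio and -0.21 on replicates 1 to 4 and 1.62, -1.56, 0.95 and no ratio on replicates 5 to 8. The second Nqo1 probe read 1.60, -0.73, 0.28 and -1.40, then 0.70, 1.23, 0.75 and 0.88. Their shared parts were 0.98 ± 0.58 and 0.41 ± 0.36, both positive and neither past the threshold (0.14 for the second without replicate 1), and their turning parts had opposite signs, at -0.65 ± 0.58 and 0.47 ± 0.36.

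Neither regulator passed. Nfe2l2, which encodes NRF2, read -0.56, -0.34, 0.54 and -1.39 on replicates 1 to 4 and 0.38, 1.04, -0.45 and 1.72 on replicates 5 to 8. It was negative on 3 of 4 arrays of the first set and positive on 3 of 4 of the other, with overlap, and the turning part was 0.56 ± 0.35 (limma, adjusted p = 0.532). Keap1 read 2.02, -0.54, 0.78 and 0.30, then -0.67, 1.02, -0.12 and 1.06, with a shared part of 0.48 ± 0.37 (0.25 without replicate 1). These are transcript ratios, and NRF2 is regulated mainly as a protein.

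**Figure D3:**
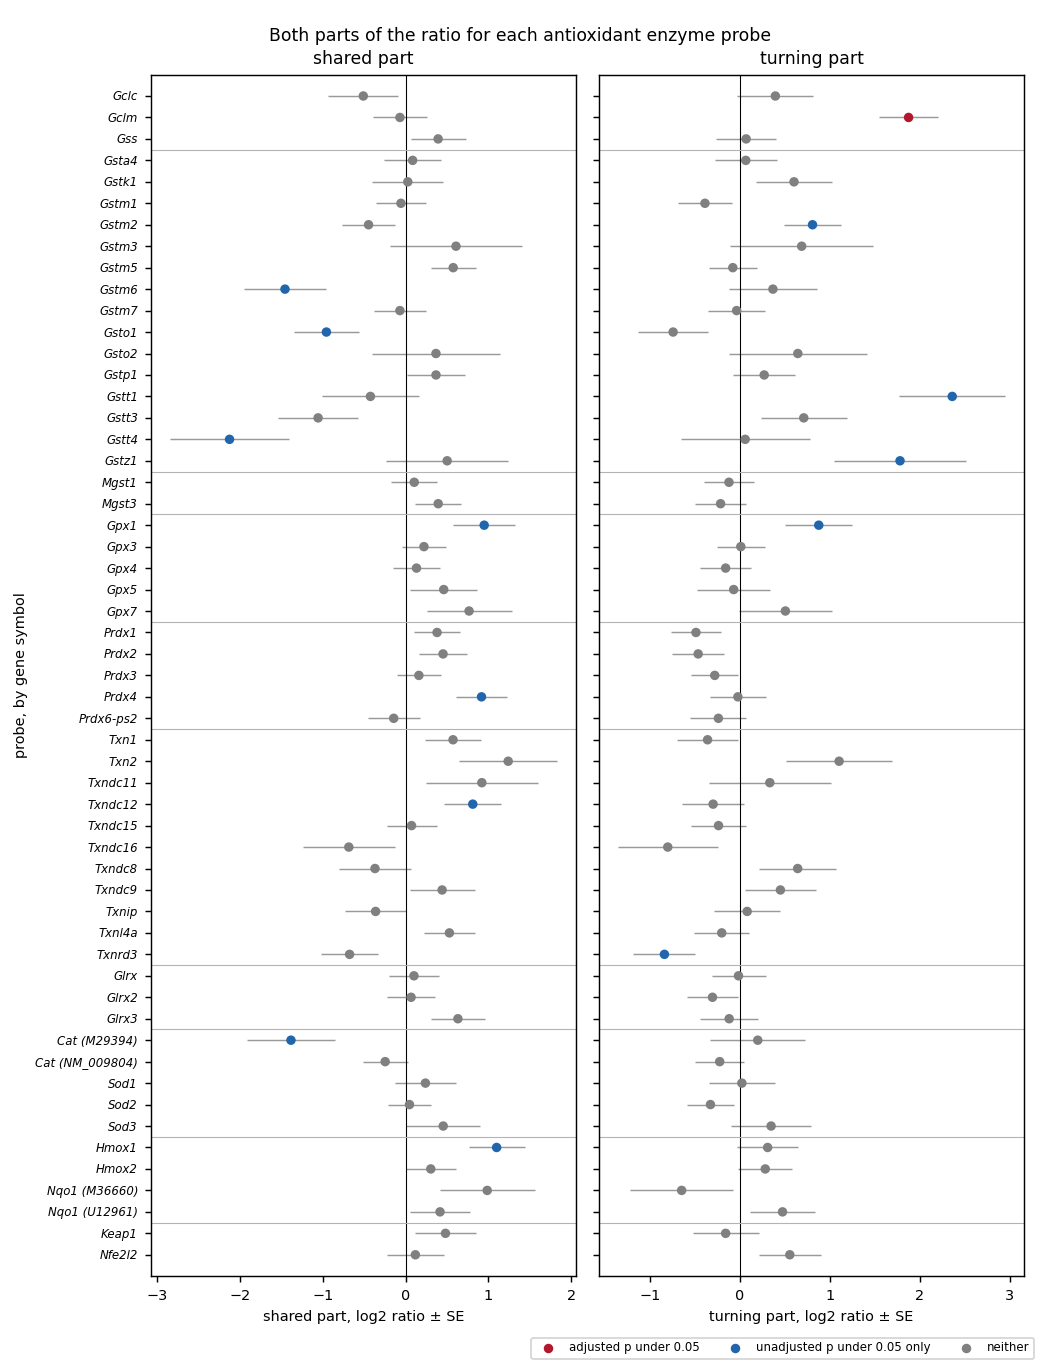
Shared part (left) and turning part (right), as log2 ratio ± SE of the limma fit, for the 55 tested probes in the same order by role. Red marks an adjusted p under 0.05 over all probes tested (Gclm alone, turning part), blue an unadjusted p under 0.05 (8 probes in the shared part and 5 besides Gclm in the turning part), and grey neither.

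Counted over the members, 7 of 55 probes (12.7%) had orientations that did not overlap, against 10.9% of all probes: Gclm, Gstt1 and Gstm2 with exposed RNA in Cy5 higher (5.45%, background 5.68%), and Prdx1, Prdx3, Sod2 and Txnrd3 with exposed RNA in Cy3 higher (7.27%, background 5.21%). The count was 14 without replicate 3 (25.5%, against 15.9% of all probes), 11 without replicate 4 (20%, against 15.6%) and 19 of 48 without the 3 arrays whose codes end in r (39.6%, against 28.1%). With the values as deposited 8 members separated (14.5%, against 14.4% of all probes), all with exposed RNA in Cy5 higher: Gclm, Gstt1 and Gstm2 as before, and Gstk1, Gstm5, Gpx1, Gpx3 and Txn2 in addition. Prdx1, Prdx3, Sod2 and Txnrd3 then overlapped, so that the split went from 3 and 4 to 8 and 0. The turning part was positive for 29 of 55 members (52.7%, background 56.9%), and for 46 of 55 with the values as deposited, which move the median turning part of all probes from 0.11 to 0.42. The median shared part was 0.22 over the members and -0.06 over all probes tested, and the median turning part 0.02 and 0.11. By array, the members' median after centring was positive on 7 of 8 arrays, while that of all probes tested was positive on 2 of 8. The members' medians were 0.26, 0.24, 0.27 and 0.14 on replicates 1 to 4 and -0.15, 0.31, 0.42 and 0.14 on replicates 5 to 8. These signs rested on the centring, which removed -0.375, -0.435, -0.324 and -0.331 from replicates 1 to 4 and 0.313, 0.229, 0.023 and 0.516 from replicates 5 to 8. As deposited, the members' median was negative on replicates 1 to 4 and positive on replicates 5 to 8. Members scattered less than other probes, with a median SD within an orientation of 0.64 with exposed RNA in Cy3 and 0.84 in Cy5, against 1.09 and 1.18 for all probes tested.

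**Figure D4:**
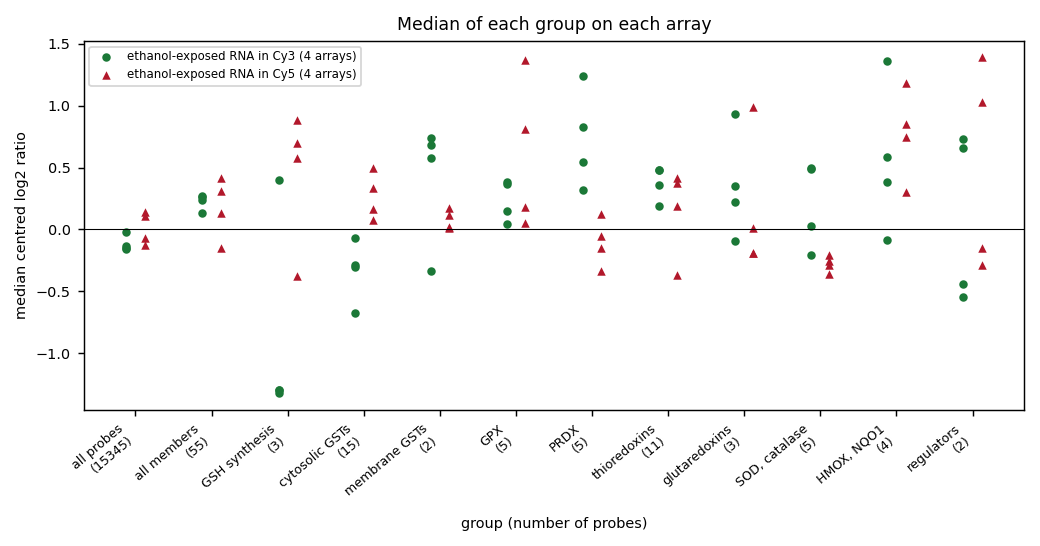
Median centred log2 ratio (y axis) of all probes tested, of all 55 members and of each role group (x axis, number of probes in brackets) on each array; green circles are arrays with exposed RNA in Cy3 and red triangles those with exposed RNA in Cy5. The peroxiredoxin circles lie between 0.32 and 1.24, above the triangles at -0.33 to 0.13. The 5 glutathione peroxidases have a positive median on 8 of 8 arrays after centring, but as deposited it was negative on replicates 1 and 2.

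The 14 members that were not tested lacked ratios in 1 or both orientations, most often because the deposited value was exactly 0. Gpx2, a peroxidase best known from the gut, had ratios of 4.30, 3.40, 1.17 and 2.79 on replicates 1 to 4 and an exact 0 on all 4 arrays of the other orientation. Gsta1 showed the opposite layout, with 3 ratios with exposed RNA in Cy5 (2.14, -2.56 and 0.73) and none with it in Cy3. Txnrd1, the cytosolic thioredoxin reductase, had ratios on 2 arrays, 1.69 and -0.45, both with exposed RNA in Cy5. Gpx8 read -0.34 and -1.02 on 2 arrays with exposed RNA in Cy3 and 2.57, 0.88, 5.66 and 0.70 in the other orientation. The other 10 were Gsta2, Gsta3, Gstm4, Gstt2, Gpx6, Glrx5, Gsr, Txnl1, Txnrd2 and Txndc17. Of the 14, 6 (Gstm4, Gstt2, Gpx6, Gpx8, Gsr and Txnl1) had at least 2 ratios in each orientation and could be fitted under that looser filter. None of these 6 passed there (limma, smallest adjusted p = 0.371, for Gpx6 in the shared part at 1.56 ± 0.60, its unadjusted p the only one under 0.05 in either part), and Gpx8 had the largest turning part, 1.57 ± 0.71 (limma, adjusted p = 0.406).

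Neighbouring redox genes were taken from a list written with earlier results known. Of 66 genes 50 were tested through 52 probes, and 0 passed in either part (limma). At an unadjusted p under 0.05 there were 8 of 52 in the shared part (background 13.9%) and 6 in the turning part (background 13.8%). Glutathione supply and turnover had a median shared part of -0.56, from the exporter Abcc1 at -1.22 ± 0.41 to the transporter subunit Slc3a2 at 0.32 ± 0.34. NADPH supply had a median of 0.52, with the pentose phosphate enzyme Tkt highest at 0.73 ± 0.33 and Idh1 lowest at -0.19 ± 0.34. Other NRF2 targets and partners ran from Cul3, the ubiquitin ligase scaffold that KEAP1 works with, at -1.60 ± 0.56 to the biliverdin reductase Blvrb at 0.91 ± 0.39. Stress scavengers and repair genes ran from one probe of the sestrin Sesn3 at -1.92 ± 0.41, whose other probe read 0.49 ± 0.60, to the DNA repair enzyme Apex1 at 0.79 ± 0.45. Among oxidant sources Cyba, the p22phox subunit that stabilises NADPH oxidases, had the lowest turning part, -1.38 ± 0.61. The oxidase Nox4 had the highest, 1.17 ± 0.29 (limma, adjusted p = 0.0895). In that list 2 probes of Nos1 set the lowest and the highest shared part, -1.62 ± 0.49 and 0.59 ± 0.51. Turning parts of such size were not particular to oxidant sources. In the other lists they ran from -1.32 ± 0.76 for Slc7a11 to 1.66 ± 0.76 for Mafk (limma, adjusted p = 0.491 and 0.383).

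Cell-type markers were counted in the same way. Of 60 marker genes 44 were tested through 48 probes and 0 passed in either part (limma). The shared part had 8 probes and the turning part 6 at an unadjusted p under 0.05 (background 13.9% and 13.8%). Astrocyte markers had the lowest median shared part, -0.66, with 1 of 8 positive and array medians from -1.62 to 0.72. This median was opposite in sign to the members' median. Neuron markers had a median of 0.44, with 4 of 6 probes positive and array medians from -1.37 to 0.82. Their lowest shared part, and their only one with an unadjusted p under 0.05, was Dcx at -1.88 ± 0.46 (limma, adjusted p = 0.180). Neural progenitor markers had a median of 0.19, with 9 of 12 probes positive and array medians from -0.02 to 0.78. Microglia and macrophage, endothelial, erythroid, meningeal fibroblast and oligodendrocyte lineage markers had medians of -0.19, -0.14, 0.31, -0.21 and -0.16, each over 2 to 8 probes. In such bulk RNA, fewer cells of a type and less RNA per cell cannot be told apart, and the part of cell composition in the members' ratios was not tested.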

How the data were processed

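Control and ethanol-exposed RNA from neurospheres were hybridised together on 8 two-colour mouse arrays, with dyes flipped on 4 (Genisphere 3DNA labelling, per the labels' protocols). The file holds the log2 ratios deposited by the authors; which scanner, background correction and normalization produced them is not given in the sources used here. After a constant was removed from each array, 100% of low values were whole thousandths on the ratio scale (tolerance 0.0011 in log2). Exact zeros (2565 to 5200 per array) and each array's highest value (108 to 464 probes) were taken as missing. Arrays, with medians of -0.435 to 0.516, were centred on their medians.

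Probes with a value on 3 or more arrays of each orientation were fitted with limma 3.58.1 (R 4.3.3, lmFit and eBayes) for a shared and a turning part. Benjamini-Hochberg adjustment covered the 15345 probes, and the threshold was 0.05; the fit was tested on simulated data. P-values measure the spread between arrays, which may be technical. No sample was dropped or imputed; a missing ratio leaves a probe with fewer arrays. Annotation is GEO's platform table, symbols checked through Entrez numbers (15957 of 16635 probes matched). Probes of a gene were kept apart.

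Members and lists were chosen with earlier results of these data known. Every tested probe is given, by its arrays or by both parts. Each array is printed for probes with an unadjusted p under 0.05 in either part and for tested probes of Gclc, Gclm, Gss, Gsr, Cat, Sod1, Sod2, Sod3, Hmox1, Hmox2, Nqo1, Nfe2l2, Keap1, Txn1, Txnrd1, Gpx1 and Gpx4. Arrays of Gstm5, Prdx1, Prdx3 and untested members are printed for their pattern, chosen after their values were seen. Code numbers 1, 3 and 5 each occur in both orientations, and deviations of those arrays correlated at 0.044, 0.014 and -0.016. The numbers were not taken as pairs in the main fit. Such correlations cannot show whether arrays with the same number shared a culture, since scatter between arrays can hide it. Alternatives are in the closing section.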

Additional observations from a re-analysis of the deposited data

Results flagged for a closer look

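In groups of 4 arrays, a single array lay apart from the other 3 for 2 of 92 probe and orientation groups (2.17%), where chance flags about 1 in 20. For Glrx3 replicate 4 gave -0.09, whereas replicates 1 to 3, also with exposed RNA in Cy3, gave 0.94 to 1.14. For Mgst1 replicate 3 gave -0.49, whereas its 3 companions gave 0.41 to 0.53. Both arrays have codes that end in r. The ratios of Gclm differed between the dye orientations, with a turning part of 1.88 past the threshold (limma, adjusted p = 0.0185).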

How the results depend on the processing

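Over 19 alternatives, 921 of 968 values of single named probes kept their sign and their side of the threshold. Part of this agreement was fixed in advance. Taking floor values as missing, robust eBayes and the filters on the number of arrays left the fitted values of these probes as they were. Only Gclm was past the threshold in the main fit, so the count is a description and does not measure how stable the values are. The count of members called in the turning part, 1, was 2 with the values as deposited, where Gstt1 joined Gclm, 0 without the 3 arrays whose codes end in r, and 0 to 1 with single arrays left out. The members' median turning part was 0.34 as deposited, 0.25 with exact zeros kept (43 of 55 positive) and -0.05 to 0.06 with single arrays left out; the median shared part was 0.12 with exact zeros kept and 0.14 (without replicate 3) to 0.25 with single arrays left out. Of the 26 named probes, 16 shared and 17 turning parts moved by over 1.5 times or changed sign when some single array was left out; the turning part of Gclm did not. With single arrays left out 0 members were called in the shared part, and 35 to 39 members had a positive shared part. The unadjusted counts were 5 to 9 in the shared part, against 10.8% to 14.7% of all probes. In the turning part they were 3 to 7, against 11.2% to 14.2% of all probes. Orientations without overlap were seen for 8 to 14 members, against 14.2% to 16.7% of all probes. Without the r arrays, which leave fewer samples, the shared unadjusted count was 3 of 48, against 11.2% of all probes. The orientations of 19 of these 48 members did not overlap, against 28.1% of all probes. With a value on all 8 arrays the turning unadjusted count was 2 of 42, against 14.8% of all probes. The count of positive shared parts and the count without overlap were added as results after the data were seen. A replicate block by code number (consensus correlation 0.0089) gave Gclm 1.88 with adjusted p = 0.0182 and changed no call.

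Signs turned for 14 small values, the largest 0.50, and the cause was not tested beyond what the setting itself does. As deposited, turning parts became 0.094 for the second Cat probe, 0.16 for Gpx4, 0.16 for Keap1, 0.30 for Prdx4 and 0.02 for Txndc12, and the shared part of Sod2 -0.0020. With exact zeros kept they became 0.020 (the same Cat probe), 0.086 (Gpx4), 0.086 (Keap1), 0.22 (Prdx4) and, shared, -0.018 (Sod2). With arrays scaled to one spread, the shared part of Gclm became 0.0021 and the turning part of Gstt4 -0.084; with array weights these were 0.038 and -0.31, and the turning part of Gss -0.035. Without the r arrays the shared parts of Nfe2l2, Sod1 and Sod2 were -0.063, -0.031 and -0.0029, and the turning part of Gstt4 -0.25. With single arrays left out the shared parts ran from -0.23 to 0.12 for Gclm, -0.11 to 0.88 for Gstz1 and -0.057 to 0.30 for Nfe2l2, and the turning parts from -0.21 to 0.50 for the first Cat probe, -0.15 to 0.21 for Gss, -0.45 to 0.66 for Gstt4, -0.35 to 0.071 for Keap1, -0.17 to 0.13 for Prdx4 and -0.31 to 0.19 for Sod1. The number of arrays limits precision, and signal over background is unknown.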
